A study of Mus musculus with 23 samples.

Results

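Docosahexaenoic acid (DHA) was compared with its albumin carrier in mouse retinal organoids at day 32 of differentiation, in cultures that received no FGF1. The comparison was chosen by treatment, day and FGF1 state, and it held 6 of the 23 libraries in the series, 3 labelled DHA and 3 labelled BSA. Organoids of the DHA group received DHA conjugated to bovine serum albumin (BSA) at 26 µM from day 10 on, and those of the BSA group are labelled as supplemented with BSA, with no dose given. By the labels, all were grown from 1 clone of induced pluripotent stem cells, which was reprogrammed from fibroblasts of wild-type Nrl-GFP mouse embryos. The labels thus give 1 genotype, although a Y-linked transcript described below differed between replicates. Both groups shared a medium with taurine, insulin-like growth factor 1 and 9-cis retinal from day 10 to day 26, and from day 26 on B27 supplement lacking vitamin A, non-essential amino acids and fetal bovine serum were added. Each directional poly(A) library was made from 100 ng of RNA of neural retina dissected from 12 pooled organoids. The labels call the libraries biological replicates, and p-values here measure the spread between these cultures, labelled as 1 clone. Linoleic acid (LA), conjugated to BSA and given at 26 µM from day 10, was the third medium (3 libraries). DHA and BSA libraries of day 26 (2 each) and of day 32 with FGF1 at 200 ng/ml (2 each among those the authors kept) served as other samples.

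DHA is the main polyunsaturated fatty acid of photoreceptor outer segments, where it sits in the phospholipids of the disc membranes. Cells take it up, activate it to its CoA ester and build it into phospholipids, or make it from shorter precursors with desaturases and elongases, and free fatty acids can also switch on genes through PPAR receptors. Melanin, in contrast, is made in the pigment epithelium behind the retina, in the ciliary margin and in melanocytes, by enzymes of the tyrosinase family whose genes are bound by the transcription factor MITF.

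The DHA libraries were less alike than the BSA libraries. Total counts lay between 10405663 and 11888224 in the 6 libraries. Across genes, the correlation of log2 CPM (CPM being counts scaled to a common library size) between pairs of libraries was 0.893 to 0.954 within DHA and 0.943 to 0.971 within BSA, while DHA replicate 2 and BSA replicate 1 gave 0.965. Genes are not independent replicates, so these values only rank the pairs. The SD of log2 CPM over replicates had a median over genes of 0.49 in DHA and 0.30 in BSA, and it was larger in DHA for 75.8% of genes. On the first principal component, which held 54.0% of the variance, the DHA libraries scored −56.1, 74.3 and −69.3 for replicates 1, 2 and 3, and the BSA libraries 58.4, −12.6 and 5.30. DHA replicate 2 therefore lay at one end and the other DHA libraries at the opposite end, with BSA between them. Mitochondrially encoded transcripts took 9.38%, 5.55% and 10.6% of the counts in the DHA libraries, against 8.25%, 8.55% and 7.20% in the BSA libraries. Regressed on the GC content of transcripts, log2 CPM had slopes per 10 percentage points of −1.19, −0.04 and −1.27 in the DHA libraries, against −0.20, −0.86 and −0.67 in the BSA libraries. Replicate 1 of each group was among the 5 libraries left out of the authors' normalized table, and these libraries carry transcripts that the others nearly lack. The Y-linked gene Eif2s3y stood at 46.4, 0.588 and 0.549 CPM in DHA and 53.7, 0.500 and 0.438 CPM in BSA. The imprinted long noncoding RNA gene Meg3 stood at 404, 7.02 and 2.89 CPM in DHA and 282, 1.61 and 2.95 CPM in BSA. Replicate 1 was the high library in both groups for both genes. LA replicate 1 was high as well, at 62.9 CPM for Eif2s3y and 126 CPM for Meg3. Why these libraries differ was not tested, and a shared genotype rests on the labels. Markers of neural retina were present: all 19 rod genes and all 19 bipolar genes looked for passed the filter on low counts, against 2 of 10 pluripotency genes. Passing the filter does not single out retina, as 18 of 18 mesenchyme, 12 of 18 pigment and 7 of 14 other brain neuron genes also passed.

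**Figure D1:**
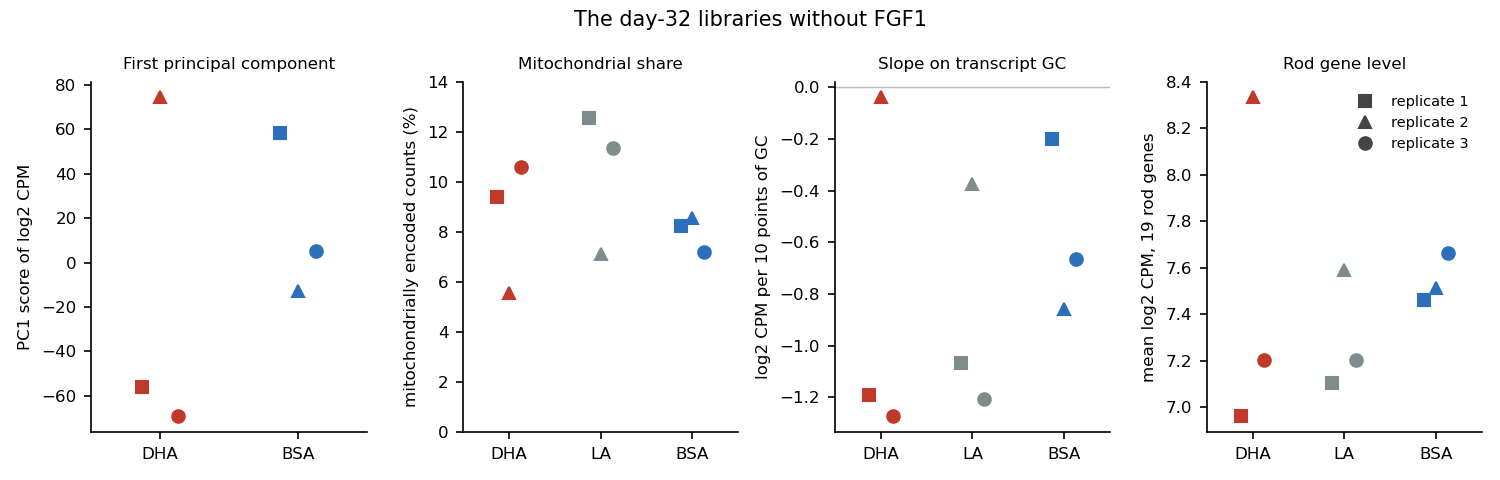
Measures of the day-32 libraries without FGF1, 1 point per library: score on the first principal component (6 DHA and BSA libraries), share of mitochondrially encoded counts in percent, slope of log2 CPM for each 10 percentage points of transcript GC, and mean log2 CPM of 19 rod genes. DHA replicate 2 stands apart from DHA replicates 1 and 3 on each measure, with the least mitochondrial share (5.55%) and the highest rod gene level (8.33).

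No gene passed the test for DHA against BSA. With edgeR's quasi-likelihood test, the authors' left-out libraries as a term in the fit and Benjamini-Hochberg adjustment, 0 of 16325 genes had an adjusted p under 0.05, and every adjusted p was 1. At an unadjusted p under 0.05 there were 144 genes, or 0.882% of those tested, of which 52 were higher in DHA (0.319%) and 92 lower (0.564%). All 3 DHA libraries lay above all 3 BSA libraries for 393 genes (2.41%), and below them for 439 genes (2.69%). DESeq2 called 7 genes and limma voom with sample quality weights called 2329, of which 971 were higher in DHA and 1358 lower. The count of calls also turned on DHA replicate 2: without that library edgeR called 994 of 16758 genes, or 5.93%, with 373 higher (2.23%) and 621 lower (3.71%). With an offset for GC content as well, 133 genes were called (0.794%), 69 higher (0.412%) and 64 lower (0.382%), and with transcript counts summed per gene 2627 were. The part of GC content and mitochondrial share in these calls was not tested beyond that offset. The precision was limited: the 95% interval reached a median of 0.95 to each side on the log2 scale, or 0.63 for genes of average log2 CPM of 5 or more, and the median difference over all genes tested was 0.04. A term for whether the difference between DHA and BSA itself varied between left-out and kept libraries passed for 0 genes (edgeR, smallest adjusted p 0.863), with 519 at an unadjusted p under 0.05 (3.18%).

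Melanosome genes led the genes with lower values in DHA: Tyr had the smallest p of the 10 lower genes named for p, and Tyr, Pmel, Gpnmb and Tyrp1 had the largest differences of the 10. Tyr (ENSMUSG00000004651, chr7:87424771-87493512, GRCm38), the enzyme that starts melanin synthesis, stood at 0.835, 1.86 and 0.710 CPM in DHA replicates 1, 2 and 3, against 10.7, 17.6 and 8.88 CPM in BSA. These levels rested on 8.2, 23.3 and 7.5 counts in DHA and on 136.8, 192.9 and 96.8 counts in BSA. The groups did not overlap, and DHA replicate 2, the library that stood apart elsewhere, was low here too. The log2 difference was −3.48 (SE 0.57, 95% interval −4.82 to −2.14, edgeR unadjusted p = 0.000397). In replicates 2 and 3 alone it was −3.38, and without DHA replicate 2 it was −4.02 (edgeR adjusted p = 0.0142).

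Other genes of the melanosome had values in the same direction. Pmel, the protein that forms the fibrils melanin is laid on, stood at 0.326, 0.996 and 0.704 CPM in DHA, against 9.00, 6.75 and 2.56 CPM in BSA (log2 difference −3.12, SE 0.74, unadjusted p = 0.00350). Tyrp1, a tyrosinase relative that acts on a later intermediate, stood at 2.21, 4.47 and 1.01 CPM in DHA, against 19.3, 28.3 and 5.47 CPM in BSA (−2.77, SE 0.77, unadjusted p = 0.00792). Gpnmb, a melanosomal membrane glycoprotein related to Pmel, stood at 3.65, 2.20 and 3.35 CPM in DHA, against 29.5, 27.1 and 8.54 CPM in BSA (−2.79, SE 0.52, unadjusted p = 0.000907). None of these 3 genes overlapped between the groups, and BSA replicate 3 was the lowest BSA library each time. Dct, the dopachrome tautomerase, stood at 12.7, 12.1 and 6.89 CPM in DHA, against 28.1, 29.1 and 16.7 CPM in BSA (−1.22, SE 0.38, unadjusted p = 0.0132). Mitf itself differed less, at 5.34, 6.87 and 8.37 CPM in DHA, against 8.39, 8.60 and 12.2 CPM in BSA (−0.52, 95% interval −1.40 to 0.36, unadjusted p = 0.208). Mitf was still lower in every DHA library than in every BSA library, by a narrow gap.

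Upstream sequences of these genes are shown because the 7-base core of the M-box, the MITF-type motif known from pigment genes, can be read in them. The lines give the 160 bases before the annotated start of Tyr (chr7:87493513-87493672, minus strand), Tyrp1 (chr4:80834053-80834212, plus strand) and Dct (chr14:118052247-118052406, minus strand), 5′ to 3′ on the gene's strand, from RefSeq on GRCm38.p6, with TCATGTG in capitals.
Tyr: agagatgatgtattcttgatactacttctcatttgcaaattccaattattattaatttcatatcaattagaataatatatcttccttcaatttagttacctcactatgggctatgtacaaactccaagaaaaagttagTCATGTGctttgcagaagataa
Tyrp1: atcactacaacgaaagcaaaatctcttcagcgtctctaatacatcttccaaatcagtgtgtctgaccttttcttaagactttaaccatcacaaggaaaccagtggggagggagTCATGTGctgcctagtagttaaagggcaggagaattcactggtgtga
Dct: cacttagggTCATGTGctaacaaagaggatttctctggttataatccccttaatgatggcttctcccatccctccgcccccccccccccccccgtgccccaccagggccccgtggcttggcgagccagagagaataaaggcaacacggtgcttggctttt
The motif ended 15 bases before the start in Tyr, 40 bases before it in Tyrp1 and 144 bases before it in Dct, which held another copy 225 bases before its start. Searched on both strands in the 250 bases before each start, TCATGTG was held by 3.25% of 32851 promoters, and the longer AGTCATGTG, which contains it, by 0.228%. Tyr and Tyrp1 held the longer form and Dct did not. Of 19 pigment genes looked up (the pigment list and Gpnmb), 14 had an entry and 3 held TCATGTG. A match is a description of these letters and not of binding.

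Over the pigment epithelium and melanin list, 12 of 18 genes passed the filter on low counts. Of the 12, 11 had lower values in DHA, 4 of them at an unadjusted p under 0.05 (Tyr, Pmel, Tyrp1 and Dct), and 5 lay below BSA in all libraries, adding Mitf, against 2.69% of all genes tested. The list's median log2 difference was −0.86, against 0.04 for all genes, and it was −0.19 in replicates 2 and 3 alone. Its 1 higher member was Oca2. Rpe65, the isomerase that defines mature pigment epithelium, had 0 counts in all 9 libraries of day 32 without FGF1, which allows up to 0.234 to 0.306 CPM per library at 3 counts. Neural retina was dissected for the libraries, and in bulk RNA fewer cells of a type and less RNA per cell cannot be told apart. Neural crest and melanocyte genes, which include Mitf, had a median of −0.26 over 8 tested members, and Mitf was the 1 below BSA in all libraries, against 2.69% of all genes.

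**Figure D2:**
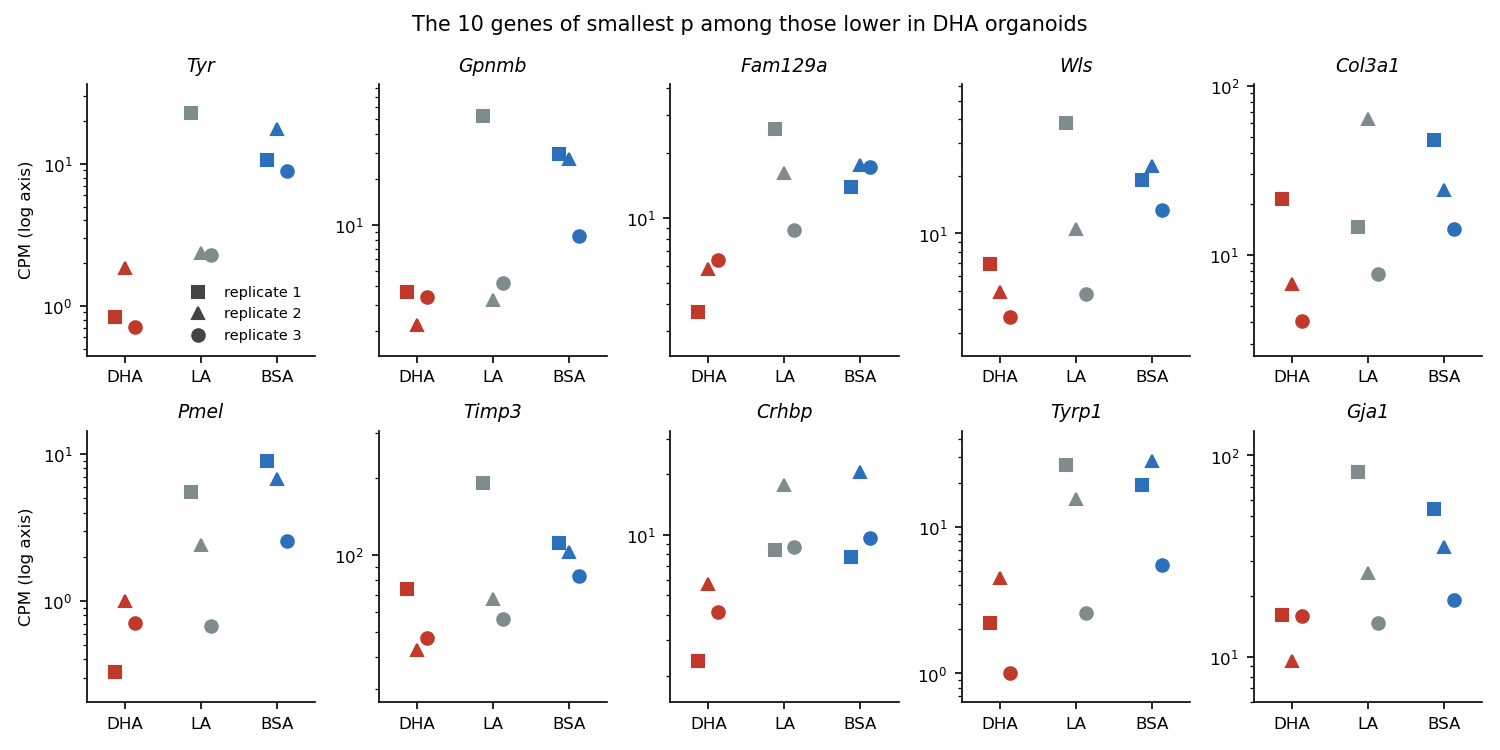
CPM per library on log axes for the 10 genes of smallest p among those lower in DHA, with DHA, LA and BSA from left to right and a symbol per replicate number. All 3 DHA libraries lie below all 3 BSA libraries for 9 of the 10 genes, Col3a1 being the exception (2.69% of all genes do). The genes were picked for small p in these libraries. The LA libraries vary by gene: all lie above DHA for Fam129a and Crhbp, while for Gpnmb they run from 3.19 to 52.7 CPM.

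The remaining lower genes of smallest p act in signalling, matrix and junctions. Wls, the carrier that brings Wnt proteins to the cell surface, stood at 6.87, 4.89 and 3.62 CPM in DHA, against 19.1, 22.6 and 13.2 CPM in BSA (−1.87, SE 0.40, unadjusted p = 0.00198). Fam129a, a gene induced by cell stress, stood at 3.67, 5.82 and 6.38 CPM in DHA, against 13.8, 17.6 and 17.2 CPM in BSA (−1.64, SE 0.35, unadjusted p = 0.00192). Both genes were separated between the groups in all libraries and stayed so with summed transcript counts, with differences of −1.88 and −1.51. Timp3, an inhibitor of matrix metalloproteases that pigment epithelium secretes, stood at 73.4, 42.5 and 47.3 CPM in DHA, against 112, 103 and 82.8 CPM in BSA (−0.90, SE 0.23, unadjusted p = 0.00487). Crhbp, which binds corticotropin-releasing hormone, stood at 2.36, 5.72 and 4.14 CPM in DHA, against 7.75, 20.5 and 9.60 CPM in BSA (−1.64, SE 0.45, unadjusted p = 0.00715). Gja1, the gap junction protein connexin 43, stood at 16.1, 9.53 and 15.9 CPM in DHA, against 54.0, 35.2 and 19.2 CPM in BSA (−1.31, SE 0.37, unadjusted p = 0.00869). Gja1 also belongs to the ciliary margin and lens list, of which 9 of 17 genes were tested. That list had a median of −0.58, and 2 of the 9 lay below BSA in all libraries (2.69% of all genes did), Gja1 and Cdo1, a cysteine dioxygenase at 7.71, 9.42 and 7.63 CPM in DHA, against 15.0, 15.3 and 15.4 CPM in BSA (−0.89, SE 0.33, unadjusted p = 0.0301). Its median was −0.19 in replicates 2 and 3 alone.

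Connective tissue genes also had lower values in DHA, with more spread within each group. All 18 genes of the mesenchyme and fibroblast list were tested, 16 had lower values in DHA and the median was −0.80, or −0.55 in replicates 2 and 3 alone. Col3a1, a fibrillar collagen, stood at 21.5, 6.70 and 4.05 CPM in DHA, against 47.8, 24.3 and 14.3 CPM in BSA (−1.60, SE 0.38, unadjusted p = 0.00346), so DHA replicate 1 overlapped BSA replicate 3. Prrx1, a transcription factor of mesenchyme, stood at 1.04, 0.954 and 1.25 CPM in DHA, against 3.67, 3.42 and 2.58 CPM in BSA (−1.57, SE 0.50, unadjusted p = 0.0154). Acta2, the smooth muscle actin of contractile fibroblasts, stood at 0.889, 0.402 and 0 CPM in DHA, against 2.75, 2.25 and 1.1 CPM in BSA (−2.40, SE 0.89, unadjusted p = 0.0295). Lox, which crosslinks collagen and was picked after its values were seen, stood at 7.57, 6.06 and 5.50 CPM in DHA, against 13.9, 13.4 and 8.93 CPM in BSA (−0.93, SE 0.37, unadjusted p = 0.0397). These last 3 genes and Col1a2 lay below BSA in all libraries, 4 of 18 members against 2.69% of all genes. Col1a1 stood at 1.3, 4.99 and 1.25 CPM in DHA, against 14.6, 7.76 and 3.78 CPM in BSA, and its groups overlapped (−1.67, SE 0.80, unadjusted p = 0.0741). Its difference was −2.78 without DHA replicate 2 (edgeR adjusted p = 0.0335), −0.91 without DHA replicate 1 and −0.87 without BSA replicate 1. With the GC offset added to the removal of DHA replicate 2, the Col1a1 difference was −2.29 (edgeR adjusted p = 0.0754). Of the 18 list members, 4 were called lower without DHA replicate 2, against 3.71% of all genes, and 0 with that offset added. The summed level of the list was 206, 188 and 82.6 CPM in DHA and 280, 229 and 215 CPM in BSA, so the part of residual connective tissue in other differences was not tested.

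Among genes of BMP signalling, a pathway that patterns the eye, the ligand Bmp2 stood at 0.691, 1.28 and 1.24 CPM in DHA, against 2.60, 3.77 and 3.02 CPM in BSA (−1.55, SE 0.49, unadjusted p = 0.0151). The secreted BMP antagonist Grem1 stood at 2.47, 0.859 and 2.28 CPM in DHA, against 5.34, 12.6 and 2.89 CPM in BSA (−1.90, SE 0.73, unadjusted p = 0.0328, and −0.98 without BSA replicate 2). Both groups of libraries were apart for both genes, the gap being narrow for Grem1. Of 22 tested genes of the BMP list 5 lay below BSA in all libraries (2.69% of all genes did) and 1 above (2.41% of all genes), while the median was −0.09, with 9 higher and 13 lower values. Clu, the secreted chaperone clusterin, stood at 69.9, 75.0 and 69.5 CPM in DHA, against 109, 110 and 88.1 CPM in BSA in the gene table (−0.52, SE 0.21, unadjusted p = 0.0439). Its transcripts summed to 376, 1174 and 375 counts in DHA, against 1333, 701 and 659 in BSA. In these sums the groups overlapped (−0.45, edgeR unadjusted p = 0.346). Without DHA replicate 2 the Clu difference in the gene table was −0.57, and with the GC offset added it was −0.11. Muller glia genes, the list that holds Clu, had a median of 0.08, and retinal progenitor genes one of 0.14.

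Genes with higher values in DHA depended more on which deposited table was read. The gene table and the transcript table have equal totals per library, but a gene's entry need not equal the sum of its transcripts, and the 2 differed by over 2-fold for 1.48% of the genes tested. Abca13, a large lipid transporter of the ABC family, had 186.4, 29.4 and 242.1 counts in DHA in the gene table, against 21, 18 and 15.9 in BSA, a log2 difference of 3.18 (SE 0.82, unadjusted p = 0.00521). Its transcripts summed to 20, 27 and 33 counts in DHA, against 26, 23 and 20 in BSA, a difference of 0.27 (95% interval −0.81 to 1.35). The separation of the groups in the gene table was thus not present in the transcript counts.

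Cr2, a complement receptor, stood at 2.93, 5.12 and 2.89 CPM in DHA, against 0.278, 0.606 and 1.18 CPM in BSA (2.43, SE 0.60, unadjusted p = 0.00435), and its difference was 0.54 with summed transcripts. Hspa12b, a heat shock protein relative of endothelium, gave 1.82 from the gene table (SE 0.68, unadjusted p = 0.0298) and 0.77 from summed transcripts. Of the 10 higher genes of smallest p, 7 had groups that did not overlap in the gene table, where 2.41% of all genes lay above BSA in this way. In the transcript sums 3 of the 10 did not overlap, against 2.03% of all genes. There 9 kept their direction and 2 had an unadjusted p under 0.05 (0.667% of all genes in those sums). Of the 10 lower genes, 9 did not overlap in the gene table (2.69% of all genes lay below BSA in this way) and 9 in the transcript sums (2.24%). All 10 kept their direction and all 10 had an unadjusted p under 0.05 in the sums. These genes were picked for small p in the same 6 libraries, and both tables count the same reads. The counts are therefore descriptions and not separate evidence.

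**Figure D3:**
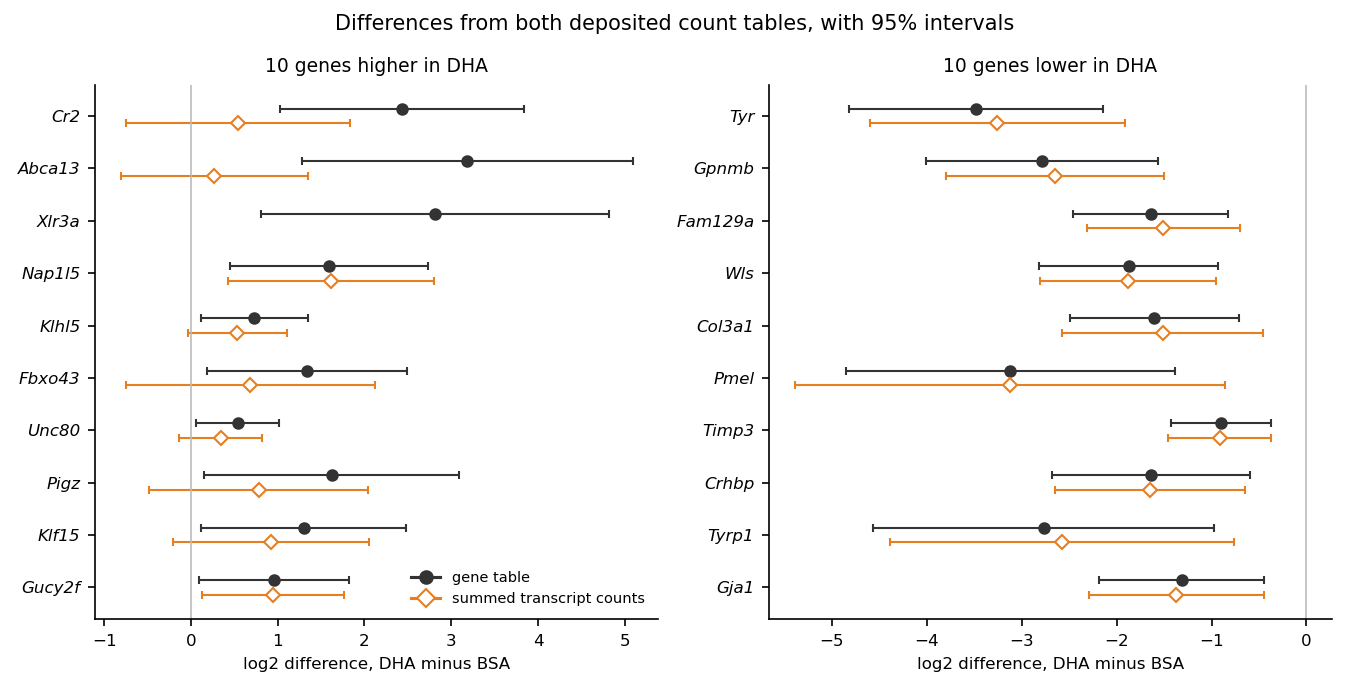
Log2 differences, DHA minus BSA, with 95% intervals from edgeR for the 10 higher and the 10 lower genes of smallest p, from the deposited gene table (filled circles) and from deposited transcript counts summed per gene (open diamonds). Xlr3a has no diamond because its sums did not pass the filter on low counts. Abca13 moves from 3.18 to 0.27 and Cr2 from 2.43 to 0.54, while Tyr stays at −3.48 and −3.25.

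Among the higher genes, Nap1l5 and Gucy2f had nearly the same difference in both tables, although the groups of both genes overlapped. Nap1l5, an imprinted gene of the nucleosome assembly family, stood at 105, 15.7 and 56.8 CPM in DHA, against 50.8, 8.20 and 11.5 CPM in BSA (1.59, SE 0.49, unadjusted p = 0.0129, and 1.61 with summed transcripts). Replicate 1 was the highest library of each group, so the groups overlapped, and without DHA replicate 3 the difference was 0.83. Gucy2f, a guanylate cyclase of photoreceptors, stood at 10.4, 22.6 and 16.1 CPM in DHA, against 5.27, 7.62 and 12.5 CPM in BSA (0.95, SE 0.37, unadjusted p = 0.0350, and 0.95 with summed transcripts), and DHA replicate 1 lay below BSA replicate 3. Klf15, a zinc finger factor of metabolic genes, stood at 3.67, 2.03 and 3.29 CPM in DHA, against 1.25, 1.2 and 1.22 CPM in BSA, with no overlap (1.3, SE 0.51, unadjusted p = 0.0350). Unc80, part of a sodium leak channel, stood at 182, 209 and 216 CPM in DHA, against 110, 152 and 159 CPM in BSA, with no overlap (0.54, SE 0.20, unadjusted p = 0.0317). Klhl5 (0.73), Fbxo43 (1.34), Pigz (1.62) and Xlr3a (2.81) completed the 10, with unadjusted p between 0.0125 and 0.0344. Xlr3a, an X-linked gene with near copies, stood at 9.44, 0.912 and 0.171 CPM in DHA, against 1.63, 0 and 0.110 CPM in BSA, so its groups overlapped and replicate 1 was the highest library of each.

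Of the 7 genes that DESeq2 called, 4 were lower genes named above (Tyr with an adjusted p of 1.27e-05, Gpnmb, Fam129a and Wls) and 1 was Abca13 (adjusted p = 0.0428). The other two, chosen after their values were seen, were listed at 0 in all libraries of one group. Gm42878, a predicted gene on chromosome 5 that overlaps Mapkapk5 and Adam1a on the same strand, had 102.5, 88.2 and 62.8 counts in DHA and 0 in each BSA library, and its transcript sums were 106.1, 87.7 and 62.8 in DHA and 0 in BSA. An Arvcf entry on a patch sequence (ENSMUSG00000098615) had 0 counts in DHA and 11.4, 27.7 and 50.2 in BSA, while its paired transcripts summed to 0 in all 6 libraries. Reads of overlapping genes and of a patch copy could be divided in more than 1 way, so both entries are uncertain.

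Photoreceptor genes, the class that DHA serves in the retina, did not differ beyond the spread of the DHA libraries. Nrl, the rod fate factor, stood at 541, 974 and 682 CPM in DHA, against 785, 825 and 823 CPM in BSA (−0.17, 95% interval −0.82 to 0.47). DHA replicate 2 was above all BSA libraries for Nrl, and DHA replicates 1 and 3 were below all of them.

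Crx, which acts in rods and cones, stood at 1434, 1165 and 1271 CPM in DHA, against 1258, 1286 and 1282 CPM in BSA (0.01, 95% interval −0.59 to 0.62). Nr2e3, the rod factor downstream of Nrl, stood at 364, 573 and 546 CPM in DHA, against 391.8, 494 and 482 CPM in BSA (0.10, 95% interval −0.43 to 0.62). Both intervals reach 0.62 above 0.

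The 19 rod genes had a median difference of 0.08, with 11 higher and 8 lower values and none at an unadjusted p under 0.05. Their mean log2 CPM was 6.96, 8.33 and 7.20 in DHA, against 7.46, 7.51 and 7.66 in BSA. Without DHA replicate 2 their median difference was −0.39, and 6 of the 19 were called lower against 3.71% of all genes, among them Gnat1 and Sag, while with the GC offset added 0 of 19 were. Of 14 tested cone genes 9 had higher values (median 0.16). The cone transducin subunit Gngt2 stood at 54.5, 48.0 and 27.5 CPM in DHA, against 110, 61.0 and 53.3 CPM in BSA (−0.74, SE 0.28, unadjusted p = 0.0330), where DHA replicate 1 overlapped BSA replicate 3. Genes shared by rods and cones had a median of 0.12 over 23 tested members. Among them Neurod1, a factor of photoreceptor differentiation, stood at 870, 539 and 1194 CPM in DHA, against 557, 666 and 644 CPM in BSA (0.48, 95% interval −0.30 to 1.27). Without DHA replicate 2 the Neurod1 difference was 0.77 (edgeR adjusted p = 0.0275), and without DHA replicate 3 it was 0.12. In that removal of DHA replicate 2, Neurod1 and Impg2 were called higher, 2 of the 23 shared genes against 2.23% of all genes. Unc119 and Tulp1 were called lower, 2 of the 23 against 3.71% of all genes. With the GC offset added, 0 of the 23 were called.

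Bipolar cell genes had a median of 0.31 over 19 tested members, with 16 higher values, none at an unadjusted p under 0.05 and none above BSA in all libraries. Grm6, the glutamate receptor of ON bipolar cells, stood at 60.8, 50.7 and 39.2 CPM in DHA, against 32.3, 37.5 and 39.5 CPM in BSA (0.45, 95% interval −0.17 to 1.07). Isl1, a transcription factor of bipolar and ganglion cells, stood at 88.6, 45.4 and 68.1 CPM in DHA, against 40.3, 52.4 and 53.0 CPM in BSA (0.45, 95% interval −0.26 to 1.16). Both differences turned on single libraries: for Isl1 it was 0.08 without DHA replicate 1, 0.11 without BSA replicate 1 and 0.70 without DHA replicate 2, and for Grm6 it was 0.19 without DHA replicate 1 and 0.22 without BSA replicate 1. Amacrine, horizontal and ganglion cell genes had medians of 0.17, 0.03 and 0.04. Endothelial genes had a median of 0.58 in the gene table over 5 tested of 11, and 0.08 with summed transcripts, with Hspa12b as the only one of them at an unadjusted p under 0.05. Microglia genes were mostly too low to test (3 of 12).

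**Figure D4:**
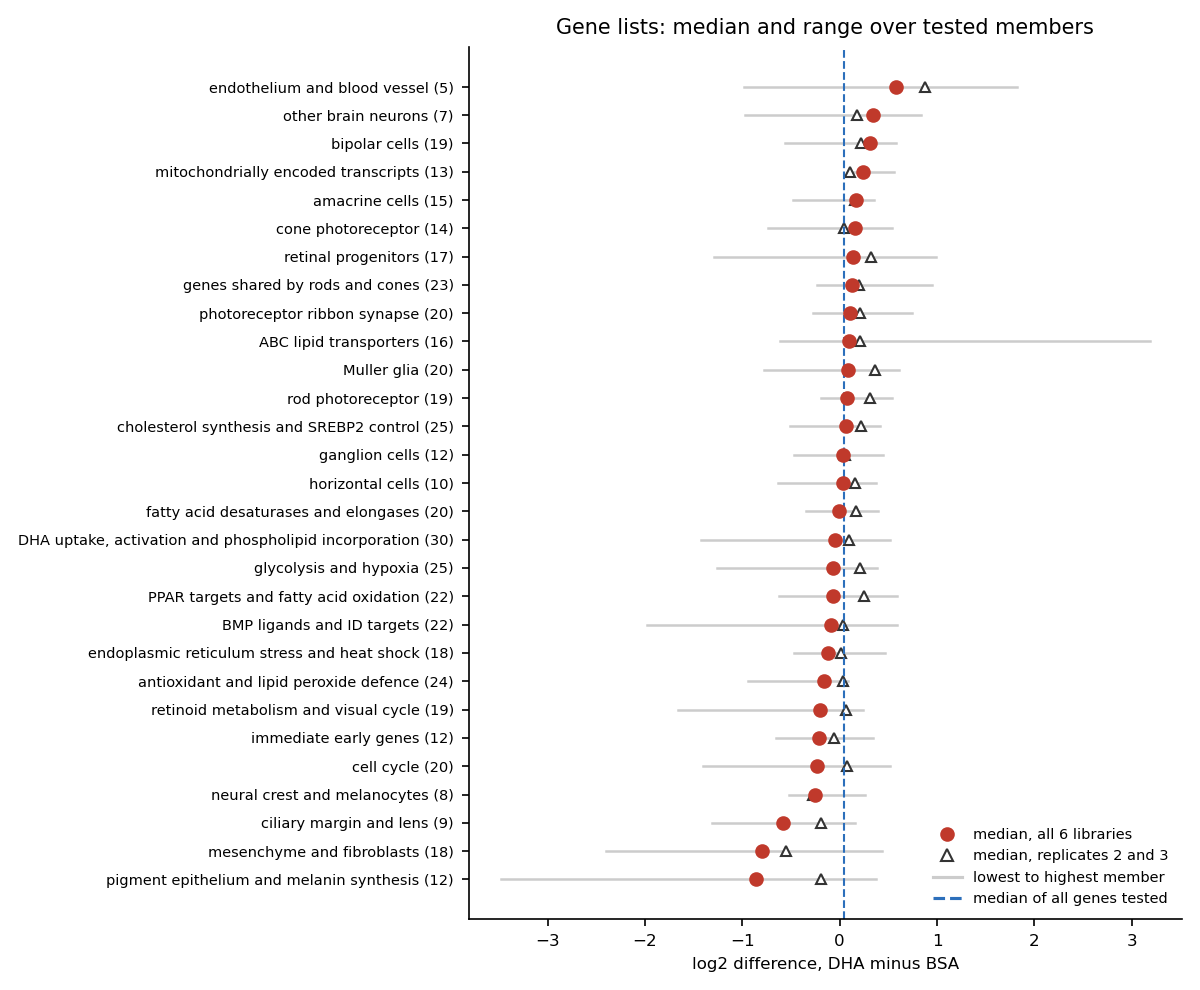
Median log2 difference, DHA minus BSA, of each gene list with at least 5 tested members (number in brackets), from all 6 libraries (circles) and from replicates 2 and 3 alone (triangles), with a line from the lowest to the highest member. The pigment (−0.86), mesenchyme (−0.80) and ciliary margin (−0.58) lists lie farthest below the dashed median of all genes at 0.04, and the pigment and ciliary margin medians are −0.19 in replicates 2 and 3.

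Gene lists for the handling of DHA itself had medians close to 0. The list of desaturases and elongases had a median of 0.00 over 20 tested members, with 10 higher and 10 lower values. Elovl2, which makes the precursor of DHA, stood at 189, 202 and 247 CPM in DHA, against 211, 214 and 216 CPM in BSA (−0.01, 95% interval −0.51 to 0.49). Elovl4, which makes very-long-chain fatty acids in photoreceptors, stood at 535, 385 and 658 CPM in DHA, against 416, 506 and 482 CPM in BSA (0.17, 95% interval −0.48 to 0.82). Fads2, the delta-6 desaturase that opens the pathway from shorter fatty acids, stood at 22.9, 110 and 15.8 CPM in DHA, against 83.4, 36.3 and 42.9 CPM in BSA (−0.12, 95% interval −1.97 to 1.72). DHA replicate 2 was above every BSA library for Fads2 and the other DHA libraries below every one. Without DHA replicate 2 Fads2 was lower by −1.56 (edgeR adjusted p = 0.0191), and with the GC offset as well by −1.20 (edgeR adjusted p = 0.0367).

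The list for uptake, activation and phospholipid incorporation of DHA had a median of −0.05 over 30 tested members. Mfsd2a, the transporter of DHA as lysophospholipid, was near the limit of detection at 0.346, 2.30 and 0.417 CPM in DHA, against 2.73, 0.473 and 1.63 CPM in BSA (−0.63, 95% interval −3.08 to 1.83). PPAR targets and fatty acid oxidation genes had a median of −0.07 over 22 tested of 30. Cpt1a, the gate of mitochondrial fatty acid oxidation, stood at 64.7, 134 and 102 CPM in DHA, against 97.5, 104 and 131 CPM in BSA (−0.19, 95% interval −0.78 to 0.39). Plin2, a coat protein of lipid droplets, stood at 7.80, 11.6 and 6.21 CPM in DHA, against 20.5, 8.24 and 10.4 CPM in BSA (−0.50, 95% interval −1.58 to 0.58). Angptl4, a secreted lipase inhibitor and PPAR target, did not pass the filter, with 0, 2.00 and 0 counts in DHA, against 6.80, 15.6 and 2.90 in BSA. Cholesterol synthesis genes had a median of 0.06 over 25 tested members. None of the members of these 4 lists had an unadjusted p under 0.05.

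Antioxidant genes had lower values in DHA for 19 of 24 tested members, with a median of −0.16 that lay above 0 in replicates 2 and 3 alone. Gclm, the modifier subunit of glutathione synthesis, stood at 27.6, 44.1 and 51.9 CPM in DHA, against 62.4, 68.5 and 66.6 CPM in BSA in the gene table (−0.72, SE 0.25, unadjusted p = 0.0219), without overlap. Its transcript sums gave a difference of 0.11, so its direction turned with the table. Nqo1, a quinone reductase of the oxidative stress response, stood at 2.77, 1.61 and 1.43 CPM in DHA, against 5.19, 3.79 and 2.11 CPM in BSA (−0.94, SE 0.49, unadjusted p = 0.0940), and DHA replicate 1 overlapped BSA replicate 3. The 13 mitochondrially encoded transcripts all had higher values in DHA, with a median of 0.24 and none at an unadjusted p under 0.05, but the median was −0.18 with the GC offset and −0.20 without DHA replicate 3. The largest of these differences was that of mt-Atp8, at 1926, 802.0 and 2590 CPM in DHA, against 1354, 1077 and 1183 CPM in BSA (0.56, 95% interval −0.46 to 1.58), where DHA replicate 2 was the lowest of the 6 libraries and the GC offset gave −0.10. Without DHA replicate 2, mt-Atp8 (0.91, edgeR adjusted p = 0.0335) and mt-Nd2 were called higher, 2 of 13 against 2.23% of all genes, and with the GC offset added 0 of 13 were. Glycolysis genes had a median of −0.07, stress chaperones −0.12, cell cycle genes −0.23 and immediate early genes −0.21, and in replicates 2 and 3 alone the medians were 0.21, 0.01, 0.07 and −0.06 in the same order. Without DHA replicate 2, 7 of 25 glycolysis genes were called lower, among them Gapdh, Pkm and Ldha, against 3.71% of all genes, and with the GC offset added 1 was, Aldoa. Retinoid genes had a median of −0.20 over 19 tested members, and Crabp2, a retinoic acid binding protein, stood at 1.58, 2.27 and 1.15 CPM in DHA, against 6.29, 2.80 and 2.94 CPM in BSA (−1.16, SE 0.55, unadjusted p = 0.0696).

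The LA libraries allow DHA to be set against another fatty acid on the same carrier at the same dose and time. With all 9 libraries in 1 edgeR fit, 0 of 17006 genes passed for DHA against LA (every adjusted p was 1), and 265 had an unadjusted p under 0.05 (1.56%). DESeq2 called 3 genes. This comparison shares its DHA libraries with DHA against BSA, so the values are given side by side and not as separate evidence. Fam129a differed by −1.66 between DHA and LA (95% interval −2.64 to −0.67, unadjusted p = 0.00413), with LA libraries at 25.9, 16.1 and 8.76 CPM, all above the DHA libraries. Crhbp differed by −1.55 (−2.50 to −0.60, unadjusted p = 0.00486), with LA libraries at 8.43, 17.8 and 8.74 CPM, also all above DHA. Prrx1 differed by −1.72 (unadjusted p = 0.00311), with LA libraries at 4.69, 2.80 and 3.45 CPM.

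Pigment genes varied widely within LA. Tyr stood at 22.6, 2.36 and 2.27 CPM in the LA libraries, so replicate 1 was above every BSA library and replicates 2 and 3 were below every one. The Tyr difference was −2.42 for DHA against LA (95% interval −4.52 to −0.32, unadjusted p = 0.0281) and −1.04 for LA against BSA. Gpnmb had the same layout in LA at 52.7, 3.19 and 4.16 CPM, and its difference was −1.79 for DHA against LA (unadjusted p = 0.0551). The medians of the pigment list were −0.24 for DHA against LA and −0.37 for LA against BSA. Those of the mesenchyme list were −0.69 and −0.07. The summed level of the mesenchyme list was 182.2, 374.5 and 123.7 CPM in LA, against 206, 188 and 82.6 CPM in DHA. These 2 groups overlapped, and LA replicate 2 was the highest library. Mertk, the receptor by which pigment epithelium and macrophages engulf debris, stood at 1.97, 1.71 and 2.37 CPM in DHA, 5.31, 5.90 and 4.48 CPM in LA and 3.82, 3.59 and 2.35 CPM in BSA. Its difference was −1.36 for DHA against LA (unadjusted p = 0.00824) and −0.68 for DHA against BSA (unadjusted p = 0.207).

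The lower genes were also read in DHA and BSA libraries that the comparison did not use, 2 of each at day 26 and 2 of each at day 32 with FGF1. With FGF1, all 10 lower genes of smallest p again had lower mean log2 CPM in DHA, against 48.6% of the genes that were lower without it, and 6 of the 10 were below BSA in both DHA libraries, against 14.8% of all genes. Tyr stood at 0.198 and 0.154 CPM in DHA with FGF1, against 3.23 and 3.21 CPM in BSA with FGF1, a log2 difference of −3.57. Tyrp1 stood at 0.478 and 0.790 CPM in DHA with FGF1, against 10.5 and 2.92 CPM in BSA with FGF1 (−2.96).

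At day 26 none of the 10 had a lower mean in DHA, against 51.6% of the genes that were lower at day 32, and 5 of the 10 were above BSA in both DHA libraries, against 11.5% of all genes. Tyr stood at 7.32 and 11.9 CPM in DHA at day 26, against 7.36 and 1.25 CPM in BSA at day 26 (1.57). Pmel stood at 28.6 and 25.1 CPM in DHA at day 26, against 18.0 and 2.66 CPM in BSA at day 26 (1.92). BSA replicate 2 of day 26 was the low library for each of these genes. The pigment list had a median difference of 0.48 at day 26 and −0.63 with FGF1, and the mesenchyme list 0.16 and −0.47. With 2 libraries a group these differences were not tested, and day 26 differed from day 32 in medium and depth as well as age. Of the 10 higher genes 4 were higher with FGF1 (52.8% of genes that were higher without it) and 6 at day 26 (48.4%), shares near those of all genes.

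**Figure D5:**
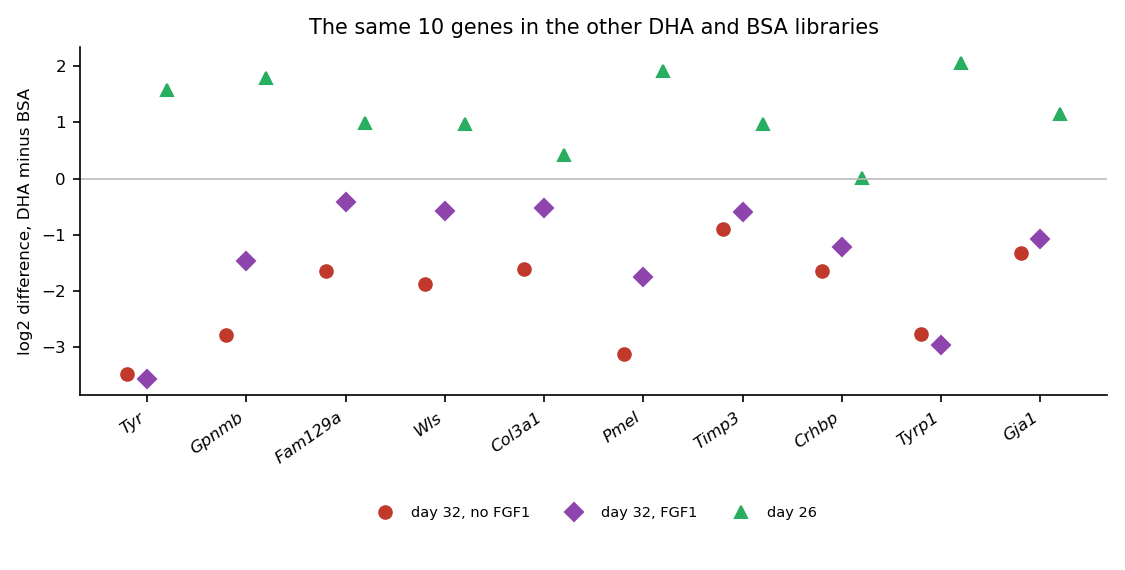
Log2 difference, DHA minus BSA, of the 10 lower genes of smallest p at day 32 without FGF1 (circles, fitted, 6 libraries), at day 32 with FGF1 (diamonds) and at day 26 (triangles), the FGF1 and day-26 values from group means of 2 libraries each. All 10 are below 0 with FGF1, as for Tyr at −3.57, and all 10 are at or above 0 at day 26, as for Tyr at 1.57.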

How the data were processed

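Gene and transcript expected counts (estimated counts that need not be whole) were deposited by the authors for 23 libraries. The tools kallisto 0.45.0, Trimmomatic 0.36 and edgeR and the build GRCm38.p6 are named by the submitters' processing notes, and their order is not given in the sources used here. The other table is a normalized CPM signal deposited by the authors for 18 libraries, which served only for gene names, positions and to tell which 5 libraries were left out.

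Counts were rounded, filtered with filterByExpr, scaled by TMM and tested with edgeR 4.0.16 (quasi-likelihood, 3 residual degrees of freedom, Benjamini-Hochberg, threshold 0.05) on R 4.3.3, with a term for the left-out libraries. The left-out libraries are those numbered 1, so that term and the replicate number 1 cannot be told apart. SEs and 95% intervals come from the F statistic and are approximate. CPM values share the TMM scale of the 9 day-32 libraries without FGF1, and log2 CPM used a prior count of 2. A count of 0 was bounded by 3 counts, and bounds cover counting error only. GC content and transcript to gene pairs came from GENCODE M21 (134511 of 136550 transcripts paired), and 28 symbols that the deposited table holds as dates were restored from a gene name table. Alternatives ran in DESeq2 1.42.0 and limma 3.58.1, figures in matplotlib 3.10.9 (Python 3.11.15), and the fits were tested on simulated data. The alternatives covered other size factors, no filter, other tools, a replicate block, GC offsets, other sets of libraries, each library left out in turn and summed transcript counts.

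The comparison, the 31 gene lists and the fixed genes were chosen with earlier results of these data known. Named genes were the 10 of smallest p in each direction, leaving out predicted-gene names and genes whose log2 CPM averaged under 1, a fixed set of retinal, lipid and pigment genes, and up to 3 members of smallest p per list. Some genes that this rule selects are not reported here.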

Additional observations from a re-analysis of the deposited data

Results flagged for a closer look

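The genes below moved one way in all DHA libraries against all BSA libraries at day 32 without FGF1, and the opposite way in all libraries of another DHA and BSA pair. None of these differences between comparisons was tested, and each other pair had 2 libraries a group. At day 26 the log2 difference, DHA minus BSA, was 1.92 for Pmel, 1.79 for Gpnmb, 2.06 for Tyrp1, 1.01 for Dct, 0.98 for Fam129a, 1.16 for Gja1 and 0.32 for Cdo1, all genes that were lower in DHA at day 32. At day 26 it was −0.43 for Abca13, −0.17 for Unc80 and −0.18 for Pigz, which were higher at day 32. With FGF1 it was 0.07 for Gclm, lower without FGF1, and −0.46 for Abca13, −0.59 for Fbxo43 and −0.67 for Hspa12b, higher without it.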

How the results depend on the processing

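For DHA against BSA, 0 genes were called by edgeR with other size factors, without the library set term, with 9 or 23 libraries, with the GC offset, with kept libraries only and with summed transcripts. Without the filter on low counts 1 gene was called, DESeq2 called 7 and limma voom 2329. Leaving out each library gave 0 to 994 calls, the highest without DHA replicate 2. That library's removal with the GC offset (133) or with summed transcripts (2627) was chosen after seeing the data. For DHA against LA the count was 28 without the filter and 3 with DESeq2, and for the interaction it was 23 without the filter. With a replicate block 0 genes were called (126 at an unadjusted p under 0.05). For deviations from the group mean, same-numbered DHA and BSA libraries had r across genes of −0.22, −0.45 and 0.25. In these values 0 of 3 DHA libraries matched their own number best. Replicate 1 was nonetheless the high library of each group for Eif2s3y and Meg3. These r values therefore cannot tell whether the numbers pair the samples.

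Of 1096 values of 50 named genes under the alternatives, 982 kept their direction and side of the threshold and 37, in 10 genes, turned direction. Of 682 medians of the gene lists 622 moved by less than the replicate spread. Tyr ranged from −4.53 to −3.19 and Abca13 from 0.25 to 3.73. Directions turned for Gclm with summed transcripts (0.108, and 0.022 with the block), Nrl with kept libraries (0.008), the GC offset (0.048) and that offset with the block (0.027), and Crx without the filter (−0.011), with kept libraries (−0.075) and with 23 libraries with (−0.015) or without (−0.01) the set term. They also turned for Fads2 (0.67), Mfsd2a (0.365) and Cpt1a (0.002) with kept libraries, Elovl2 with voom (0.12) and kept libraries (0.066), and mt-Atp8 with the GC offset (−0.10) and with the block as well (−0.12). Without DHA replicate 2, summed transcripts turned Gclm (0.42), Nr2e3 (−0.016) and Elovl2 (0.064), and the GC offset turned Nrl (0.24), Cpt1a (0.037) and mt-Atp8 (−0.053). Leaving out 1 library alone gave −0.389 to 0.008 for Nrl, −0.107 to 0.07 for Crx, −1.558 to 0.673 for Fads2, −0.124 to 0.066 for Elovl2, −0.053 to 0.388 for Elovl4, −0.376 to 0.001 for Cpt1a, −2.199 to 0.363 for Mfsd2a and −0.061 to 0.905 for mt-Atp8. Among genes that kept their sign, it moved the difference by over 1.5 times for Abca13 (1.93 to 3.73), Col1a1 (−2.78 to −0.87), Crabp2 (−1.62 to −0.77), Grem1 (−2.33 to −0.98), Grm6 (0.19 to 0.61), Isl1 (0.08 to 0.70), Meg3 (0.44 to 1.11), Nap1l5 (0.83 to 1.88), Neurod1 (0.12 to 0.77), Nr2e3 (0.04 to 0.20), Pigz (0.98 to 2.01) and Plin2 (−0.95 to −0.06). The cause was not tested.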
